A study of Mus musculus with 12 samples.

Results

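The genes examined here are 10 markers of blood vessels measured along the mouse cochlea: Pecam1, Cdh5, Cldn5, Esam, Kdr, Flt1, Tek, Tie1 and Vwf of the endothelium, and Pdgfrb of the pericytes. They were taken by gene name from the annotation of the array, and all 10 were found among the 19505 gene names measured. Cochleae of male C57BL/6 mice aged 6 weeks were cut into the apical, middle and basal turns, and 4 samples of each turn were hybridised to 12 one-colour Agilent exon arrays from 25 ng of total RNA each. Every group carried the same strain, sex and age and no treatment was labelled, so the turn is the only labelled difference. Per the study's methods, a piece of a turn held the organ of Corti, spiral ganglion neurons and the lateral wall, the latter made up of spiral ligament, spiral prominence and stria vascularis. It is a mixture of many cell types, in which fewer vessel cells and less RNA per vessel cell cannot be told apart.

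The endothelium lines every vessel as a single sheet, sealed by junction proteins and kept alive by growth factor receptors of the VEGF and angiopoietin families. Pericytes wrap the capillaries and depend on PDGF signalling from the endothelium. In the cochlea the densest capillary bed is that of the stria vascularis in the lateral wall, where tight junctions, pericytes and perivascular macrophages together form the blood-labyrinth barrier, which keeps the ionic composition of the strial fluids apart from that of blood.

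Values are log2 of the background-subtracted Cy3 signal after each array was scaled to a common 75th percentile, averaged over the probes of a gene. A difference was called where limma's moderated test gave a Benjamini-Hochberg adjusted p under 0.05 over all genes or all probes. Before scaling, the 75th percentile of signal lay between 534 and 721.6 on the 12 arrays, 77.4 to 81.4% of spots were well above background, and no spot was saturated. The 3 turns were hybridised on 3 slides, 1 turn to a slide, so slide and turn cannot be told apart in any comparison. A library stood apart in blood cell and bone genes: on the array apical 4 the mean of a neutrophil and lymphocyte list was 8.63 (at most 7.59 on the others), that of a bone list 9.39 (at most 8.71) and that of an erythroid list 10.96 (at most 10.69). Without that array, the count of vessel genes called between apex and base was still 7. All 9 genes of a hair cell list and all 9 of a stria vascularis list were above background in at least 1 turn.

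The 10 genes were covered by 206 probes, of which 183 were well above background on every array of at least 1 turn, and none was flagged. Of the 23 that were not, 18 belonged to Vwf. The 9 genes other than Cldn5 had 7 to 46 probes each, placed along their exons, so that a change could be followed along the transcript. Cldn5, whose message comes from a single exon, had 1 probe.

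Between the ends of the cochlea, most vessel genes read lower in the apex. Of the 10 genes, 7 were called between the apical and basal turns, against 39.2% of all genes tested. Of these, 6 were lower in the apical turn (Cldn5, Esam, Tek, Pecam1, Tie1 and Pdgfrb), against 21.6% of all genes called in that direction, and 1, Kdr, was higher, against 17.6%. With quantile normalization 8 were lower and none higher, with median scaling 8 lower and 1 higher, and with spike-in scaling 9 lower and none higher. The median of all genes was then -0.08, -0.15 and -0.45, so genes in general also read lower in the apex. The shares of all genes given here are those under the percentile scaling. Under that scaling the median difference over the 10 genes was -0.24 on the log2 scale, beside -0.04 over all genes. For the same 7 genes the 4 apical arrays did not overlap the 4 basal arrays, which was the case for 38.3% of all genes. The changes were small, from 1.18-fold for Pdgfrb to 1.44-fold for Cldn5, and none reached 2-fold. Over the 3 turns together, limma's F test called the same number of the 10 genes, 7, against 38.7% of all genes, and with a 2-fold difference asked for as well it called 0 of 10, against 4.69%.

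**Figure D1:**
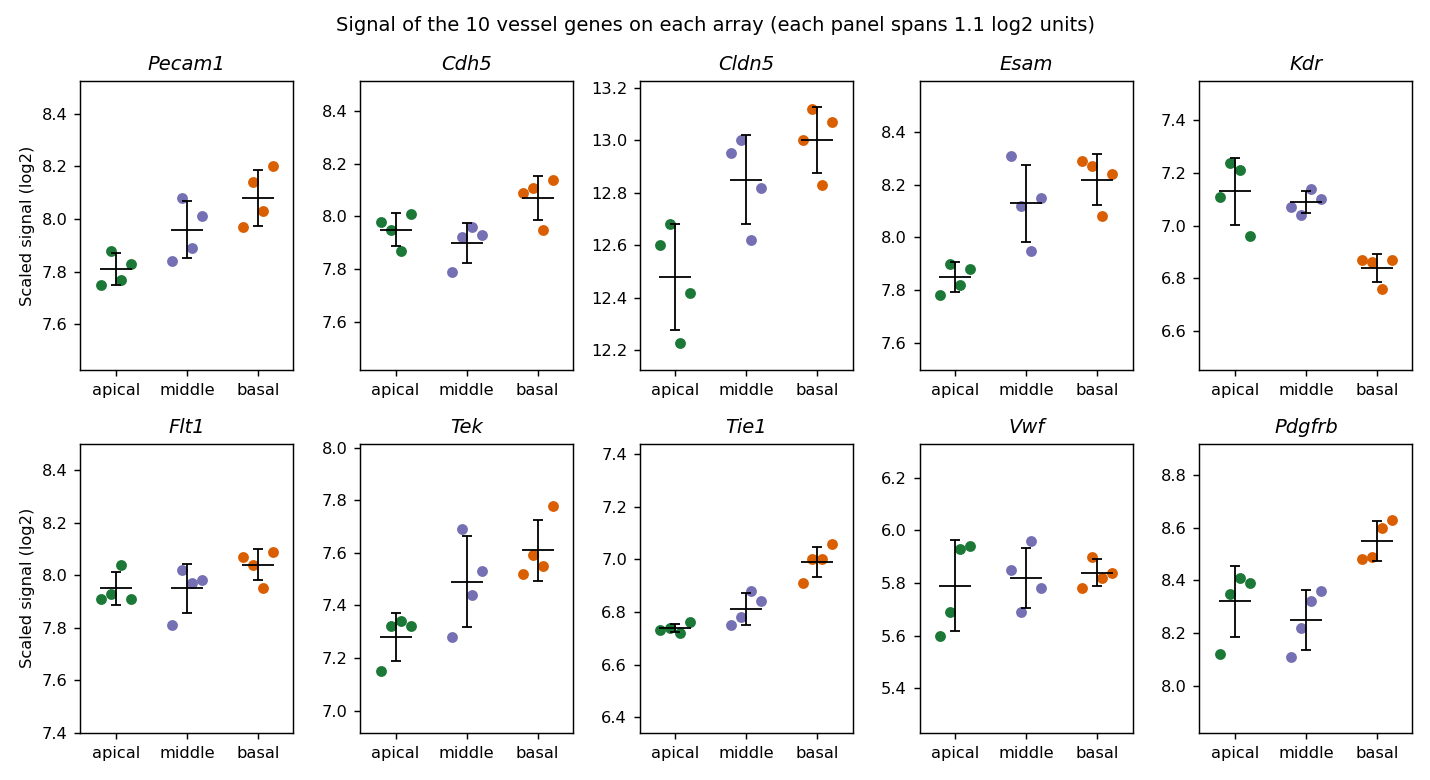
Scaled signal (log2) of the 10 vessel genes on each of 12 arrays, by turn, with each point an array and the black lines the mean and SD of 4 arrays. Apical points lie below all basal points for Cldn5, Esam, Tek, Pecam1, Tie1 and Pdgfrb and above them for Kdr, whose direction turns under spike-in scaling, while Cdh5, Flt1 and Vwf overlap.

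Cldn5, Esam, Pecam1 and Cdh5 encode proteins of the contacts between endothelial cells. Cldn5 encodes claudin-5, the main strand-forming protein of endothelial tight junctions, and its probe lay at chr16:18778046-18778105 (mm9, plus strand). It read 12.60, 12.68, 12.23 and 12.42 on the apical arrays, 12.95, 13.00, 12.62 and 12.82 on the middle arrays, and 13.00, 13.12, 12.83 and 13.07 on the basal arrays. Every apical value lay below every basal value, and the middle values overlapped both. The apical signal was 1.44-fold lower than the basal (difference -0.52 ± 0.113 SE, n = 4 arrays per turn, limma adjusted p = 0.00363). With quantile normalization the difference was -0.27 (limma adjusted p = 0.0672).

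Esam encodes an immunoglobulin-type adhesion molecule that sits at endothelial tight junctions and on platelets. Its values were 7.78, 7.90, 7.82 and 7.88 in the apex, 8.31, 8.12, 7.95 and 8.15 in the middle, and 8.29, 8.27, 8.08 and 8.24 in the base. The apical arrays lay below all 8 of the others. The difference from the base was -0.37 ± 0.0763 (SE, limma adjusted p = 0.00263), and all 7 of its probes (mm9, chr9:37335816-37345854, plus strand) read lower in the apex, 4 of them called. With the median in place of the mean over its probes the difference was -0.17 (limma adjusted p = 0.226). None of 8 platelet and megakaryocyte genes was called in that comparison, against 39.2% of all genes, but 6 of them read lower in the apex. Only 6 of the 8 were above background in a turn, and 1 had a limma p under 0.05 before adjustment. The part of platelets in the Esam difference was not tested.

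Pecam1 encodes CD31, an adhesion molecule of endothelial junctions that is also found on platelets and leukocytes. It read 7.75, 7.88, 7.77 and 7.83 in the apex, 7.84, 8.08, 7.89 and 8.01 in the middle, and 7.97, 8.14, 8.03 and 8.20 in the base. The middle turn lay between the ends and overlapped both, whereas apex and base were separate (difference -0.27 ± 0.0698 SE, limma adjusted p = 0.00887). Of its 11 probes (mm9, chr11:106515671-106576412, minus strand), 6 were called, all of them lower in the apex.

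Cdh5 encodes VE-cadherin, the adherens junction protein of endothelium. It read 7.98, 7.95, 7.87 and 8.01 in the apex, 7.79, 7.92, 7.96 and 7.93 in the middle, and 8.09, 8.11, 7.95 and 8.14 in the base. The basal array 3 overlapped the other turns, and 2 of its 11 probes (mm9, chr8:106636943-106668218, plus strand) were called, both lower in the apex. Apex and base differed by -0.12, with a 95% interval from -0.25 to 0.01 (limma adjusted p = 0.128), which leaves room for a difference as large as that of Pdgfrb or for none. It was called lower in the apex with quantile normalization (-0.21, adjusted p = 0.0166), median scaling (-0.24, adjusted p = 0.012), spike-in scaling (-0.54, adjusted p = 0.000541) and averaging of linear signals (-0.18, adjusted p = 0.0196), and without basal 3 (-0.16, adjusted p = 0.0469).

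Kdr and Flt1 encode receptors for VEGF. The product of Kdr, VEGFR2, is the receptor that carries most VEGF signalling in endothelium, and Kdr was the 1 gene of the 10 that was called higher in the apex. Its probes spanned chr5:76328887-76374270 (mm9, minus strand). It read 7.11, 7.24, 7.21 and 6.96 on the apical arrays, 7.07, 7.04, 7.14 and 7.10 on the middle arrays, and 6.87, 6.86, 6.76 and 6.87 on the basal arrays. All 8 apical and middle arrays lay above all 4 basal arrays. The difference between apex and base was 0.29 ± 0.0633 (SE, 1.22-fold, limma adjusted p = 0.00368), but it was 0.13 (adjusted p = 0.111) with quantile normalization, 0.12 (adjusted p = 0.0845) when the linear signals of its probes were averaged, and -0.13 (adjusted p = 0.261) when the arrays were scaled to spike-in probes. Spike-in scaling moved the median of all genes to -0.45. Relative to the median of all genes, Kdr was higher in the apex by 0.33 under the percentile scaling, 0.21 under quantile normalization and 0.32 under spike-in scaling.

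Flt1 encodes VEGFR1, which binds VEGF tightly and, in its soluble form, holds it away from Kdr. It read 7.91, 7.93, 8.04 and 7.91 in the apex, 7.81, 8.02, 7.97 and 7.98 in the middle, and 8.07, 8.04, 7.95 and 8.09 in the base. The 3 turns overlapped. Apex and base differed by -0.09, with a 95% interval from -0.22 to 0.04 (limma adjusted p = 0.273), and 4 of its 30 probes (mm9, chr5:148373791-148537306, minus strand) were called, all lower in the apex. The gene itself was called lower in the apex with quantile normalization (-0.18, adjusted p = 0.0213), median scaling (-0.21, adjusted p = 0.0148) and spike-in scaling (-0.51, adjusted p = 0.000773). The 5 VEGF family ligands of the signalling list were picked out after their values were seen. Vegfb (-0.15, limma adjusted p = 0.0342) and Vegfc (-0.35, adjusted p = 0.000963) were lower in the apex, Pgf, placental growth factor (0.81, adjusted p = 0.0448), and Figf, which encodes VEGF-D (0.39, adjusted p = 0.02), were higher, and Vegfa differed by -0.16 (adjusted p = 0.0809). Figf had a low signal, with means of 4.54 in the apex and 4.15 in the base.

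Tek and Tie1 encode the receptor pair of the angiopoietins: Tek (TIE2) binds the ligands and Tie1 is its partner without a well-defined ligand of its own. Tek read 7.15, 7.32, 7.34 and 7.32 in the apex, 7.28, 7.69, 7.44 and 7.53 in the middle, and 7.52, 7.59, 7.55 and 7.78 in the base. Apical and basal arrays were separate, and the middle turn overlapped both. The apex was lower (-0.33 ± 0.0908, SE, limma adjusted p = 0.0141). When the median rather than the mean over its 22 probes (mm9, chr4:94406121-94540683, plus strand) was taken, the difference was -0.18 (adjusted p = 0.183), and the unmoderated test that the methods name did not call it.

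Tie1, with 22 probes at chr4:118144132-118162313 (mm9, minus strand), had the tightest apical values of the 10 genes, 6.73, 6.74, 6.72 and 6.76. It read 6.75, 6.78, 6.88 and 6.84 in the middle turn and 6.91, 7.0, 7.0 and 7.06 in the base. All basal values lay above all 8 others. The apex was lower than the base (-0.25 ± 0.047, SE, limma adjusted p = 0.00142), and by -0.11 (adjusted p = 0.177) when linear signals of the probes were averaged before taking the log.

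Of 3 angiopoietin genes, 2 were higher in the apex. Angpt1, the angiopoietin that activates Tek and is made by cells around the vessel, was at 5.23 to 5.53 in the apex, 4.41 to 4.85 in the middle turn and 3.86 to 4.22 in the base. The 3 turns did not overlap, and apex and base differed by 1.36 ± 0.11 (SE, limma adjusted p = 6.65e-06). Angpt2, the angiopoietin released by endothelium itself, was also higher in the apex, by 0.87 ± 0.211 (SE, adjusted p = 0.00671). Angpt4 was at 3.90 in both apex and base (adjusted p = 0.988). The signals of Angpt1 and Angpt4 were low. Their basal means, 4.04 and 3.90, lay below that of Vwf (5.84), although both had a probe well above background in a turn.

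Vwf encodes von Willebrand factor, the clotting protein that endothelium stores and platelets bind. It read 5.60, 5.69, 5.93 and 5.94 in the apex, 5.85, 5.69, 5.96 and 5.78 in the middle, and 5.78, 5.90, 5.82 and 5.84 in the base. The turns overlapped entirely, with a difference of -0.05 between apex and base (95% interval -0.23 to 0.14, limma adjusted p = 0.733). It was called lower in the apex with quantile normalization (-0.24, adjusted p = 0.0335) and spike-in scaling (-0.46, adjusted p = 0.0109). Only 28 of its 46 probes (mm9, chr6:125505469-125636610, plus strand) were well above background in a turn, so its gene mean carries many dim probes. Of the 4 probes called, 1 was higher and 3 were lower in the apex, and 1 of the lower ones was not above background in any turn.

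Pdgfrb encodes the PDGF receptor by which pericytes are recruited to capillaries. Fibroblasts carry it as well. It read 8.12, 8.35, 8.41 and 8.39 in the apex, 8.11, 8.22, 8.32 and 8.36 in the middle, and 8.48, 8.49, 8.60 and 8.63 in the base. All basal values lay above all apical and middle values. The apex was lower (-0.23 ± 0.0789, SE, limma adjusted p = 0.036), a call that was lost without apical 1 (-0.17, adjusted p = 0.097), apical 2 (-0.24, adjusted p = 0.0588), basal 3 (-0.22, adjusted p = 0.0784) or basal 4 (-0.20, adjusted p = 0.0938). Of its 25 probes (mm9, chr18:61204885-61244665, plus strand), 15 were called, all lower in the apex. Its ligand Pdgfb differed by -0.32 (adjusted p = 0.0802).

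The middle turn was compared with each end by the same fit. Against the base, 3 of the 10 genes were called, against 20.9% of all genes: Kdr was higher in the middle turn by 0.25 ± 0.0633 (SE, limma adjusted p = 0.0176), Pdgfrb lower (-0.30 ± 0.0789, adjusted p = 0.0213) and Tie1 lower (-0.18 ± 0.047, adjusted p = 0.0203). These are the 3 genes whose middle arrays did not overlap the basal arrays, as was the case for 24.1% of all genes. Of all genes, 11.6% were called higher in the middle turn and 9.23% lower. With quantile normalization the Kdr difference was 0.15 (adjusted p = 0.106) and with spike-in scaling -0.01 (adjusted p = 0.952), and no gene was then called higher in the middle turn, against 3 and 8 called lower. The median of all genes was -0.03 and -0.22 in these 2 settings, beside 0.04 under the percentile scaling. Under the percentile scaling Kdr was called here under each omission of 1 array (largest adjusted p = 0.0416), whereas Tie1 lost its call in 4 such fits and Pdgfrb in 3, so that 1 gene was left without middle 1, middle 2 or basal 4. Cdh5 differed by -0.17 (95% interval -0.30 to -0.04) with an adjusted p of 0.0603.

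Between apex and middle turn 1 gene was called, against 12% of all genes (4.42% higher and 7.61% lower in the apex): Esam was lower in the apex (-0.29 ± 0.0763, SE, limma adjusted p = 0.0356). Its arrays were separate in that comparison, as were those of 20.8% of all genes. The call was lost in 7 of the 12 fits that left out 1 array, with adjusted p up to 0.0872. Cldn5 had the larger difference, -0.36 ± 0.113 (SE, adjusted p = 0.0589). For Kdr the interval of the apical minus middle difference ran from -0.10 to 0.18, and for Pdgfrb from -0.11 to 0.24. The comparisons share arrays, the basal ones in the first pair and the middle ones in the last, and are not independent of each other.

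**Figure D2:**
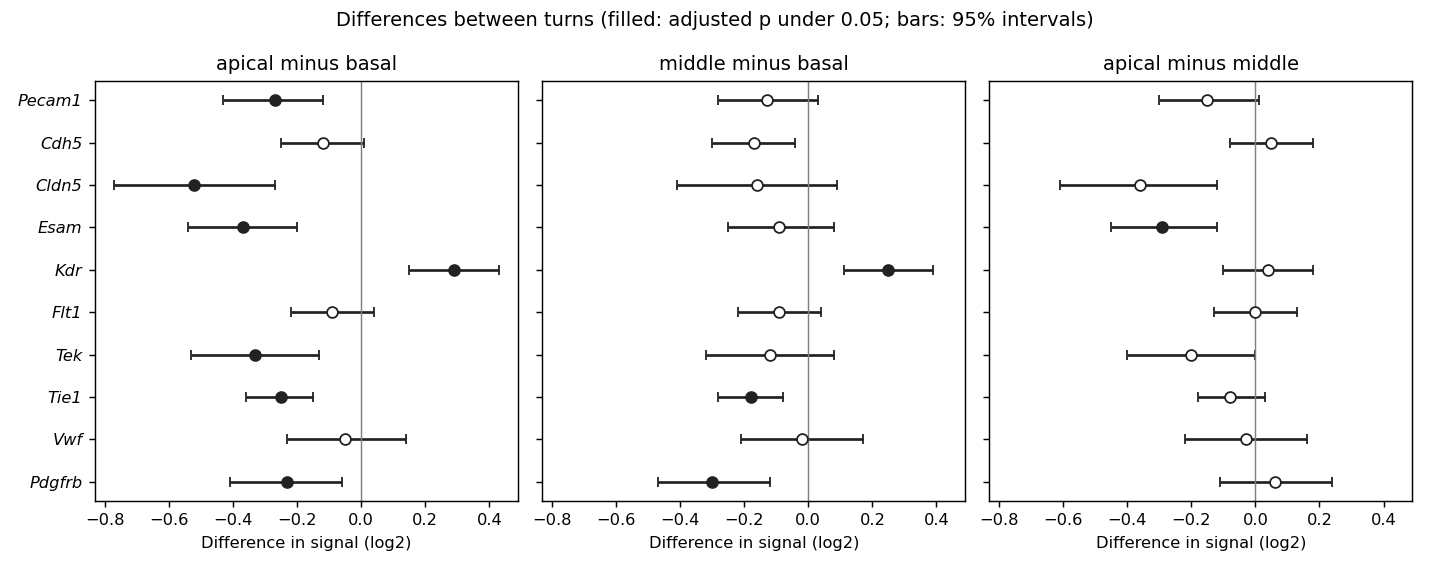
Differences in log2 signal between turns for the 10 genes, with points at the fitted difference, bars for 95% intervals and filled points at limma adjusted p under 0.05. There are 7 filled points for apical minus basal, 3 for middle minus basal and 1 for apical minus middle; the Kdr points right of 0 in the comparisons with the base fall left of it under spike-in scaling.

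Each gene was then read probe by probe. Of the 206 probes, 69 were called between apex and base, against 34.4% of all probes. Of these, 16 were higher in the apex (18% of all probes were) and 53 lower (16.4% were), a split of 8 and 76 with quantile normalization, 10 and 81 with median scaling and 0 and 140 with spike-in scaling. Shares of all probes are those under the percentile scaling. Kdr held 15 of the 16 higher probes, and 30 of its 31 probes read higher in the apex. Between middle turn and base 22 probes were called, against 13.8% of all probes. Of these, 7, all of Kdr, were higher in the middle turn (7.76% of all probes were), and 15 were lower (6.02% were), 14 of Pdgfrb and 1 of Vwf, a split of 4 and 29 with quantile normalization, 4 and 31 with median scaling and 0 and 91 with spike-in scaling. Between apex and middle turn 1 probe was called, a Tie1 probe lower in the apex, against 5.9% of all probes (3.04% higher and 2.86% lower), while 30 had a limma p under 0.05 before adjustment.

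The size of the difference was not even along Kdr. Its first 12 probes from the 5′ end read higher in the apex by 0.36 to 0.50. Probes 13 to 22 varied, from 0.11 to 0.53. Probes 23 to 26 differed by 0.04 to 0.11, probes 27 to 29 by 0.17 to 0.25, and the last 2 probes, at the 3′ end, by 0.00 and 0.05. The pair of probes below, both from inside the gene rather than its ends, is shown because it stands on either side of that change, and was picked after the values were seen. The first, the tenth from the 5′ end (mm9, chr5:76358791-76358850, minus strand), read higher in the apex by 0.47 ± 0.0719 (SE, limma adjusted p = 0.00068). The second, the eighth from the 3′ end (chr5:76340296-76340355), differed by 0.07 ± 0.0676 (adjusted p = 0.482).
Kdr, the tenth probe from the 5′ end: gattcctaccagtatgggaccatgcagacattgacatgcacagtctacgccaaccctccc
Kdr, the eighth probe from the 3′ end: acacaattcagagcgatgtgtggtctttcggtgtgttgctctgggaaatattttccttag

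The differences of Tek, Pecam1 and Pdgfrb, lower in the apex, were also uneven along the transcript, and were larger at the last probe from the 5′ end than at the first. Tek ran from -0.12 at its first probe to -0.55 at its last, and its last 8 probes were all called. Pecam1 ran from 0.04 to -0.46, with its last 6 probes called. Pdgfrb ran from 0.16 at its first probe to -0.49 at its last. The third probe from the 5′ end and the fourth from the 3′ end are given for Pecam1 to show what was measured at the beginning and end of such a run. The first (mm9, chr11:106558469-106558528, minus strand) differed by -0.12 ± 0.0799 (SE, limma adjusted p = 0.288) and the second (chr11:106545542-106545601) by -0.39 ± 0.101 (adjusted p = 0.0125).
Pecam1, the third probe from the 5′ end: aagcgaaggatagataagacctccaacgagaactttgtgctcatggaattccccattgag
Pecam1, the fourth probe from the 3′ end: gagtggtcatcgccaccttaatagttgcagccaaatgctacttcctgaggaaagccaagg

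Tek and Tie1 are related receptors, and the fourth probe from the 3′ end fell on matching stretches of both. With the 2 probes set base under base and capitals where they hold the same base, 50 of 60 positions matched (83.3%). The Tek probe (mm9, chr4:94530315-94530374, plus strand) read lower in the apex (-0.55 ± 0.166, SE, limma adjusted p = 0.0248) and the Tie1 probe (chr4:118146715-118146774, minus strand) by -0.51 ± 0.131 (adjusted p = 0.0115). Whether either spot also bound the other message was not tested.
Tek, the fourth probe from the 3′ end: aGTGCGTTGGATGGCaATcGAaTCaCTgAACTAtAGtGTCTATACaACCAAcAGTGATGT
Tie1, the fourth probe from the 3′ end: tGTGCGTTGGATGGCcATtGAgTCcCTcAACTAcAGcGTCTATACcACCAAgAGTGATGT

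Probes nearer the 5′ end, the third from it, of the same receptors are shown beside them. That of Tek (chr4:94465332-94465391) differed between apex and base by -0.42 ± 0.129 (SE, limma adjusted p = 0.0277) and that of Tie1 (chr4:118158792-118158851) by 0.02 ± 0.118 (adjusted p = 0.902).
Tek, the third probe from the 5′ end: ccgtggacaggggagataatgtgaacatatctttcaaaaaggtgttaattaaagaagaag
Tie1, the third probe from the 5′ end: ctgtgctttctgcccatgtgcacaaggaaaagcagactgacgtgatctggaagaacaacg

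**Figure D3:**
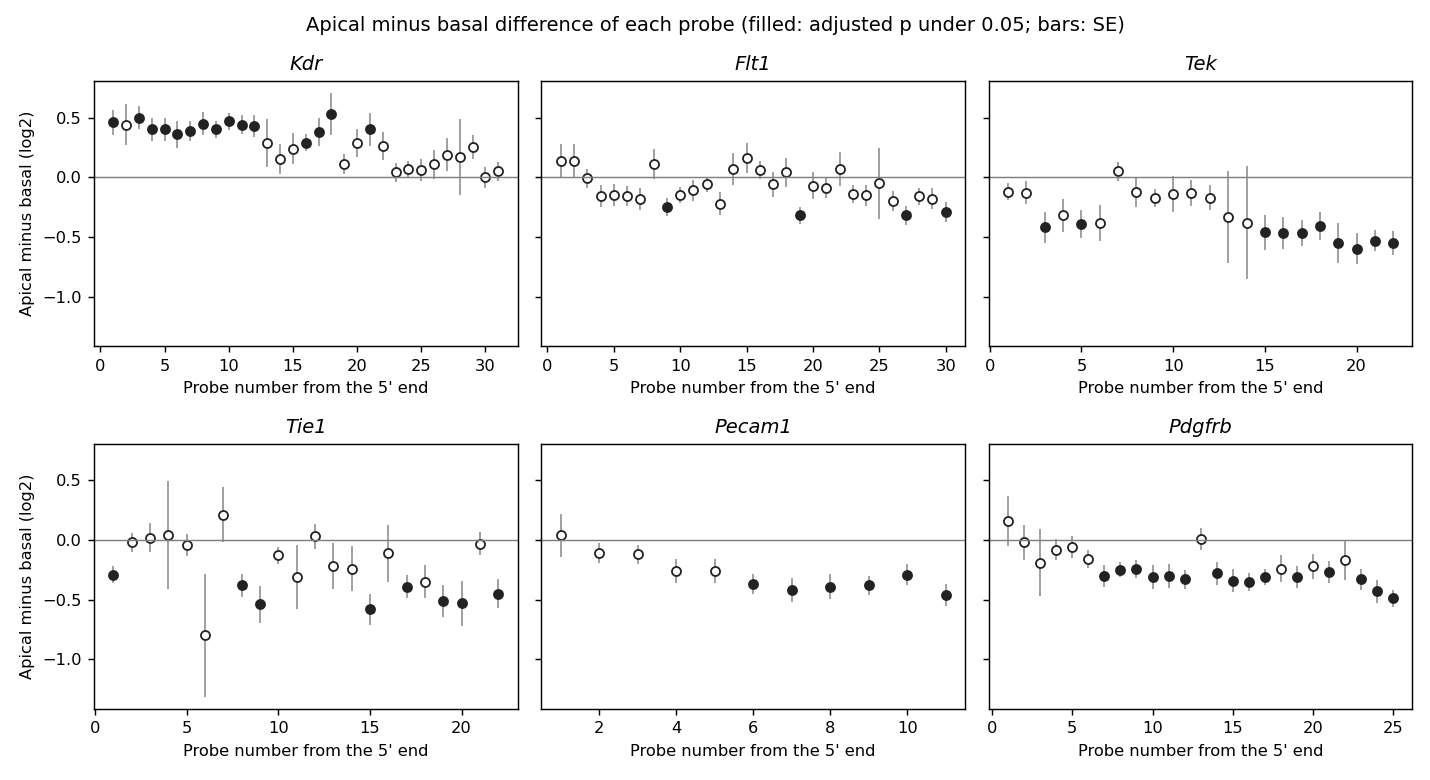
Apical minus basal difference (log2) of every probe of 6 vessel genes against the number of the probe from the 5′ end of the gene, with SE bars and filled points at limma adjusted p under 0.05. Kdr reads 0.36 to 0.50 over its first 12 probes and 0.00 and 0.05 at its last 2, without a steady fall between. These values are relative to percentile scaling, and the Kdr gene mean is below 0 under spike-in scaling. Tek, Pecam1 and Pdgfrb reach -0.55, -0.46 and -0.49 at their last probes.

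To put numbers on that slope, the probes of each gene were split at the middle of the transcript, an analysis chosen after the data were seen. In all 9 vessel genes with enough probes, the apical minus basal difference was more positive in the 5′ part than in the 3′ part. For Kdr it was 0.39 over 15 probes against 0.19 over 15, a gap of 0.20 ± 0.046 (SE, limma adjusted p = 0.0115). For Pecam1 it was -0.14 against -0.39, a gap of 0.24 ± 0.0663 (adjusted p = 0.0209), and for Pdgfrb -0.17 against -0.31, a gap of 0.14 ± 0.0381 (adjusted p = 0.0216). Tek had a gap of 0.24 ± 0.0851 (adjusted p = 0.0557) and Vwf one of 0.01.

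The same slope ran through the arrays as a whole. Over the 10468 genes with at least 6 probes the median gap was 0.09, with quartiles of -0.02 and 0.20, and 70.8% of them had a positive gap. A gap was called in 26.5% of these genes and in 3 of the 9 vessel genes. Of the 9, 3 lay above the upper quartile. Centred on each gene's mean, the median over genes of the 5′ minus 3′ signal was 0.012 to 0.068 on the apical arrays, -0.012 to 0.002 on the middle arrays and -0.055 to -0.012 on the basal arrays. With the 5′ probes alone, 3 of the 9 vessel genes were called between apex and base, and with the 3′ probes alone 7 were. The share of all genes called was not worked out for either set. The median of all genes was 0.04 with the 5′ probes and -0.05 with the 3′ probes. Kdr was called higher in the apex with either set, while Pecam1 (-0.14, limma adjusted p = 0.152), Esam (-0.28, adjusted p = 0.131) and Pdgfrb (-0.17, adjusted p = 0.114) were not called with the 5′ probes. The count of 3 called gaps was 1 with quantile normalization, 5 with only probes well above background and 1 to 4 when an array was left out, with 1 left without apical 2 or basal 2.

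**Figure D4:**
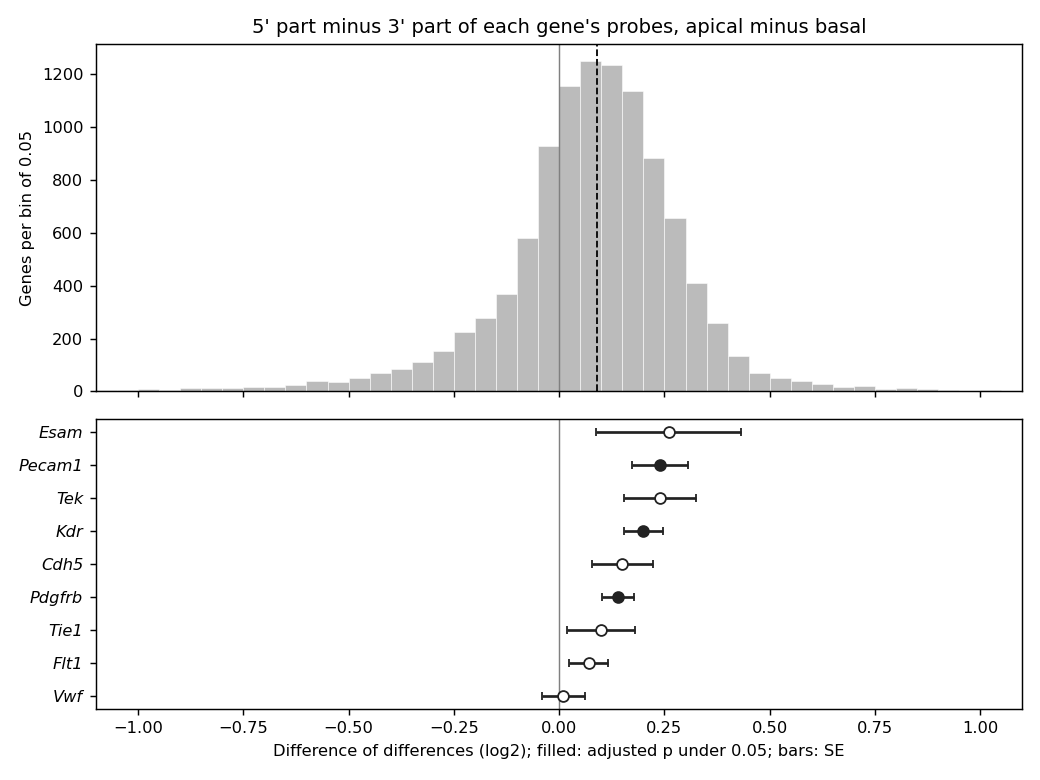
Upper panel: number of genes (bins of 0.05 log2) by the gap between the apical minus basal difference of the 5′ probes and that of the 3′ probes, over 10468 genes, with a dashed line at the median of 0.09. Lower panel: the gap in 9 vessel genes with SE bars and filled points at limma adjusted p under 0.05, all at or right of 0.01, with Pecam1, Kdr and Pdgfrb filled.

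Upstream sequence is given for Kdr and Tie1, the pair of endothelial receptors that were called in opposite directions in both comparisons with the base under the percentile scaling, whereas Kdr was not called and lay below 0 under spike-in scaling. A promoter was matched for 5 of the 10 genes in the RefSeq table (build GRCm38.p6). The windows below hold the 250 bases before the annotated start, chr5:75978456-75978705 for Kdr and chr4:118489850-118490099 for Tie1, both on the minus strand and written 5′ to 3′. Capitals mark GGAA or, on the other strand, TTCC, the core letters bound by ETS factors, a family known for its role in endothelial gene activity. Kdr held 4 matches and Tie1 held 7, while 93.4% of 32851 promoter windows of this length held at least 1, the median was 3, 33.4% held at least 4 and 3.82% at least 7. Of the other matched genes, Flt1 held 4, Tek 2 and Cldn5 0. A match is a description of the letters and shows no binding.
Kdr promoter: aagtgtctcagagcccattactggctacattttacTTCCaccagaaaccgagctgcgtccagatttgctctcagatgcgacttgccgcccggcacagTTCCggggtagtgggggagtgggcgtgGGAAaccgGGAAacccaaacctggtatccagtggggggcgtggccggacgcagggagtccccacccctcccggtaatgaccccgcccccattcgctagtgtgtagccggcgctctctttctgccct
Tie1 promoter: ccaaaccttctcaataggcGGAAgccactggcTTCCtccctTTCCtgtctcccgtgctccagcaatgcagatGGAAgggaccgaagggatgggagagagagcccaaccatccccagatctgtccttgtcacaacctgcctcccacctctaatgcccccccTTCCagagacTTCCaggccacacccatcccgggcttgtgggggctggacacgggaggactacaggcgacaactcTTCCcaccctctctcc

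The other vessel genes were taken from lists of their kind. Of 93 genes of the endothelium, its barrier, its signalling and the mural cells, 53 were called between apex and base, 20 higher and 33 lower in the apex, with a median difference of -0.15. That split was 15 higher and 43 lower with quantile normalization, 14 and 48 with median scaling and 9 and 68 with spike-in scaling. Between middle turn and base 32 were called, 15 higher and 17 lower in the middle turn, or 12 and 22 with quantile normalization, 13 and 26 with median scaling and 8 and 50 with spike-in scaling. Between apex and middle turn 18 were called, 10 higher and 8 lower in the apex, or 8 and 6 with quantile normalization, 8 and 13 with median scaling and 5 and 20 with spike-in scaling. The background for the counts under the percentile scaling is the 39.2, 20.9 and 12% of all genes given above. Between apex and base 17.6% of all genes were called higher and 21.6% lower in the apex, which is also the background for the single lists below.

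Among 26 pan-endothelial genes, 12 were lower in the apex, 1 was higher and 13 were not called, with a median of -0.26. The lower ones included Clec14a, a surface lectin of angiogenic endothelium (-0.82, limma adjusted p = 0.00216), Eng, the TGF-beta co-receptor endoglin (-0.67, adjusted p = 0.000137), and Sox17, a transcription factor of arterial endothelium (-0.67, adjusted p = 6.47e-05). Emcn, the sialomucin endomucin of veins and capillaries, was the 1 that was higher, by 1.07 ± 0.124 (SE, adjusted p = 8.07e-05). Its arrays ran from 11.66 to 12.25 in the apex, 11.79 to 12.05 in the middle turn and 10.75 to 11.10 in the base, so that apex and middle overlapped and the base stood apart from both, as it did for Kdr.

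Of 14 genes of the blood-labyrinth barrier and brain-type endothelium, 6 were lower in the apex, 2 were higher and 6 were not called. Slco1a4, an organic anion transporter of barrier capillaries, ran from 9.18 to 9.53 in the apex, 9.64 to 10.04 in the middle turn and 10.71 to 10.92 in the base. The 3 turns did not overlap, and the apex was lower (-1.46 ± 0.105, SE, limma adjusted p = 3.1e-06). Slco1c1, a thyroxine transporter, was lower (-0.89, adjusted p = 7.03e-06) and Ly6c1, a surface antigen of brain-type endothelium and of monocytes, by -0.88 (adjusted p = 0.000556). Spock2, a secreted proteoglycan, was higher by 0.96 (adjusted p = 0.000837).

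Of 29 genes of VEGF, angiopoietin, PDGF and Notch signalling, 13 were higher in the apex, 4 lower and 12 not called. Beside Angpt1, the largest were Pdgfc, a PDGF ligand (1.13, limma adjusted p = 2.23e-06), Pdgfra, the PDGF receptor of fibroblast-like cells (1.11, adjusted p = 8.49e-07), and Jag1, a Notch ligand also made by supporting cells of the organ of Corti (0.99, adjusted p = 3.34e-06). Pdgfra and Pdgfrb went in opposite directions between apex and base, with Pdgfra at 9.05 to 9.18 in the apex and 7.90 to 8.13 in the base.

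Mural cell genes were split. Of 15 pericyte genes 6 were lower in the apex, 3 higher and 6 not called, with a median of -0.01. Kcnj8, the pore of the pericyte ATP-sensitive potassium channel, was lower (-0.57, limma adjusted p = 0.00708) and Gja4, connexin 37, by -0.50 (adjusted p = 0.0133). Des, the intermediate filament desmin, was higher by 0.90 (adjusted p = 0.000309) and Foxf2, a transcription factor of brain pericytes, by 0.74 (adjusted p = 3.87e-06). Abcc9 of the same list was also higher, by 0.44 (adjusted p = 0.000298), over 36 probes beside 2 for Kcnj8, so the channel as a whole cannot be called lower. Of 9 vascular smooth muscle genes 5 were lower, 1 higher and 3 not called. Tagln (-1.67, adjusted p = 6.52e-06) and Acta2 (-1.21, adjusted p = 9.47e-07), both of the contractile apparatus, were at 8.85 to 9.46 and 10.86 to 10.98 in the base and at 7.34 to 7.69 and 9.60 to 9.80 in the apex.

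**Figure D5:**
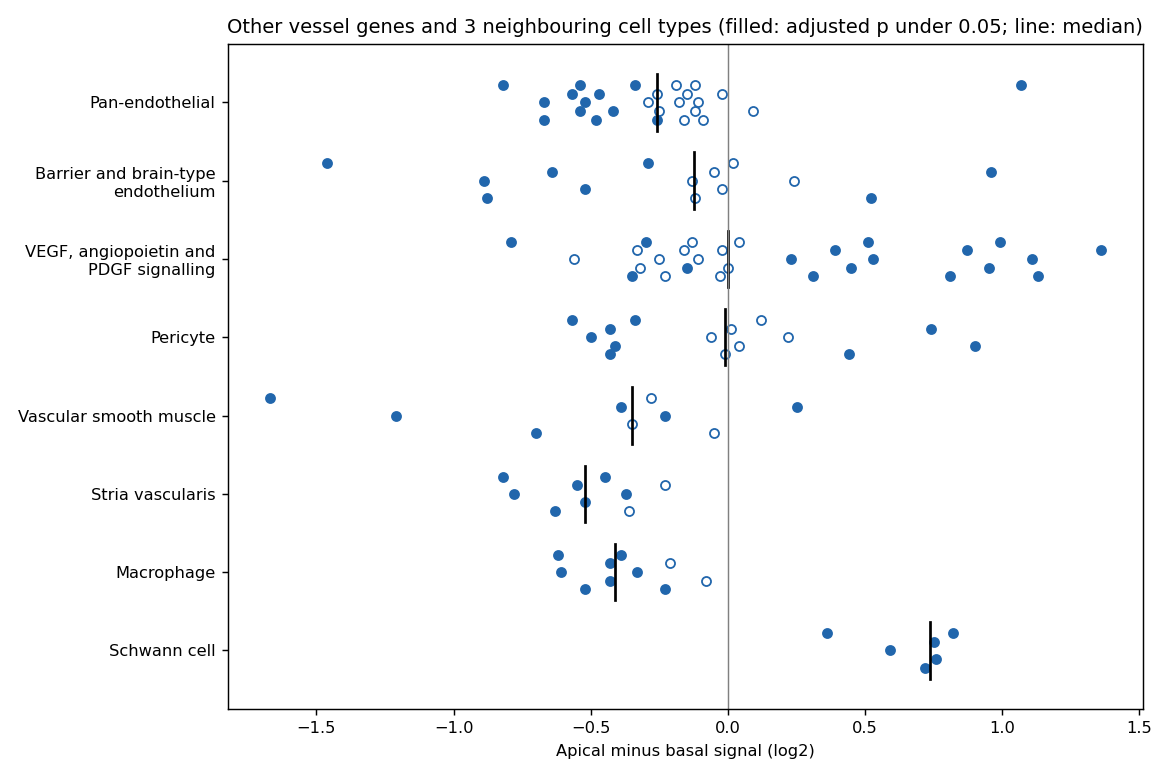
Apical minus basal difference (log2) of each gene of 5 vessel lists and of 3 neighbouring cell types, with a point per gene, filled at limma adjusted p under 0.05, and a line at the median of each list. Pan-endothelial, smooth muscle, stria vascularis and macrophage genes lie mostly left of 0, with medians of -0.26, -0.35, -0.52 and -0.41, and Schwann cell genes all lie right of it; Emcn at 1.07 is the pan-endothelial exception.

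Markers of other cells in the same pieces also differed between apex and base, some lists in the direction of most vessel genes and some in the other. The share of all genes called in that comparison was 21.6% lower and 17.6% higher in the apex. Of 9 stria vascularis genes 7 were lower in the apex and none higher. Array means of the list ran from 10.47 to 10.67 in the apex, 10.72 to 11.19 in the middle turn and 10.91 to 11.18 in the base. Of 10 macrophage genes 8 were lower and none higher, with list means of 7.79 to 8.12 in the apex, 7.96 to 8.03 in the middle turn and 8.23 to 8.48 in the base. All 6 Schwann cell genes, in contrast, were higher in the apex, with list means of 10.52 to 10.66 in the apex and 9.53 to 10.37 in the base. The means over the 10 vessel genes ran from 7.87 to 7.97, from 7.97 to 8.06 and from 8.06 to 8.19 in the 3 turns. Every gene of the stria, macrophage and Schwann lists was above background in a turn. The part of the cell mixture of the pieces in the vessel gene differences was not tested.

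The average profile of the 10 genes was matched against 15998 other genes with a probe above background on all 12 arrays, by the root mean square distance between profiles centred on their own means. The nearest were 9030624J02Rik (distance 0.0232), Lrwd1 (0.0248), Golga5 (0.0285), Hsf1 (0.0288) and Araf (0.0301). The distances of the 10 genes themselves ran from 0.0563 for Tie1 to 0.217 for Kdr, the gene farthest from the average. The 5 nearest were picked as the closest of 15998, so their shorter distances say nothing about the 10 genes. The distance also counts the size of a change: Cldn5, lower in the apex as the average was, lay at 0.2.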

How the data were processed

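Cy3 intensities of 12 one-colour exon arrays were used as deposited: the authors scanned the arrays and, per the file headers, made the background-subtracted signals with Agilent Feature Extraction 10.7.3.1. Of 172966 spots without controls on each array (165984 probes), 119 probes were left out as flagged outliers. Each array was scaled to the common 75th percentile (640.8), log2 was taken, spots of a probe and then probes of a gene name were averaged, and 19505 names were fitted with limma 3.58.1 in R 4.3.3, with turn as the factor. P-values were adjusted by the Benjamini-Hochberg method over all genes, or over all 165865 probes. The study's methods name one-way ANOVA, run here as an alternative. In it a difference was called where the F test's adjusted p and the unadjusted p of the contrast were both under 0.05. Replicates are the 4 samples labelled for a turn. The study's methods name 4 mice and call the samples independent, so the spread within a turn is taken as that between mice. Which samples of different turns share a mouse is not given in the sources used here, and the main fit treats the 12 arrays as independent. The precision is limited by the number of arrays, 4 per turn. Turn and slide coincide, and all arrays were scanned on 1 day. The deposited value table holds the same intensities (0 mismatches). Probe coordinates are mm9, from the array annotation.

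The 10 genes and all lists were chosen with earlier results of these data known. All 10 genes were named, with up to 4 called genes of each list having the largest apical minus basal difference, and the 5 genes nearest in profile. Vegfa, Vegfb, Vegfc, Figf, Pgf, Angpt2, Angpt4, Pdgfb and Abcc9 were named after their values were seen. The split of probes into a 5′ part and a 3′ part, leaving out the middle probe of an odd number, was likewise added after the data were seen. The fits were also run on simulated data with independent noise on each array. That simulation held no slide effect and no shared mice, so it cannot test for either.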

Additional observations from a re-analysis of the deposited data

Results flagged for a closer look

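Of 30 groups of 4 arrays (10 genes in 3 turns), 2 held an array far from the other 3. Kdr on basal 3 read 6.76 against 6.86 to 6.87 on the other basal arrays, and its gap to the nearest was 0.923 of the range of the group. Tek on apical 1 read 7.15 against 7.32 to 7.34, with the same ratio of 0.923. Both groups were tight apart from these arrays, and how often chance gives gaps of this size was not tested. The call between apex and base held without any 1 array for both genes, with limma adjusted p up to 0.0129 for Kdr and 0.0445 for Tek.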

How the results depend on the processing

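Counts below are calls among the 10 vessel genes, the 93 other vessel genes and the 206 probes of the 10 genes. The share of all genes or probes called was worked out for the main processing only. Calls by the methods' ANOVA rest on an unadjusted p of the contrast and are not like the adjusted ones beside them. The 7 differences called between apex and base kept their sign under all alternatives, except that of Kdr under spike-in scaling.

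Between apex and base, the 10 genes gave 0 calls by the moderated F test with a 2-fold difference (7 had a limma p under 0.05 in that contrast), the other vessel genes 7 and the probes 0 (85 with p under 0.05). Spike-in scaling gave 140 probes. With the 5′ probes alone, 3 of 9 vessel genes and 30 of 61 others were called. Between middle turn and base, spike-in scaling gave 8 genes, 58 others and 91 probes, median scaling 35 probes, the methods' ANOVA 40 probes, averaging of linear signals 1 gene, and the F test with a 2-fold difference 0 genes (4 with p under 0.05), 2 others and 0 probes (60 with p under 0.05). The 5′ probes alone gave 20 others and the 3′ probes alone 21 others, of 61.

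Between apex and middle turn, calls among the 10 genes were 2 with median scaling, with well-detected probes, with 16 added to each signal, with limma's trend and robust options and with the methods' ANOVA, and 4 with spike-in scaling. They were 0 with the median of probes (3 with limma p under 0.05), with the arrays of the 2 turns alone (2), with the F test and a 2-fold difference (3) and with the 5′ probes alone (1). Probe calls were 2 with quantile normalization, 3 with median scaling and with well-detected probes, 12 with spike-in scaling, 4 with trend and robust options, 18 with the methods' ANOVA, and 0 with the arrays of the 2 turns alone or the F test and a 2-fold difference (30 with limma p under 0.05 in both). The other vessel genes gave 0 by the F test with a 2-fold difference (29 with p under 0.05) and 11 of 61 with the 5′ probes alone.

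The methods name 4 mice and 4 samples per turn, so the turns may share mice, but the labels do not say whether a number marks a mouse. Same-numbered arrays of different turns did not deviate together in every pair (12 pairs, r from -0.0367 to 0.227, 6 over 0.1, mean 0.0949). Not every array correlated best with its own number. The main fit did not take the numbers as pairs, and these correlations do not settle whether they are. Differently numbered arrays had a mean r of -0.0313, with 2 of 36 over 0.1. Values were centred on the mean of each turn first, which ties this mean to that of same-numbered arrays. With the replicate number as a block, 7, 3 and 3 of the 10 genes were called in the 3 comparisons, and 8 probes between apex and middle turn. The block added the calls of Cldn5 (-0.36, adjusted p = 0.00624) and Pecam1 (-0.15, adjusted p = 0.0482) between apex and middle turn.

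Leaving out 1 array at a time gave 6 to 7 genes between apex and base (6 without apical 1, apical 2 or basal 4), 1 to 4 between middle turn and base and 0 to 2 between apex and middle turn. The other vessel genes gave 47 to 55, 23 to 33 and 11 to 18, and the probes 45 to 71, 8 to 24 and 0 to 6, with the lowest probe counts without apical 1, middle 1 and apical 1.

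Single differences that changed sign were, under spike-in scaling, Kdr between apex and base (-0.13), middle turn and base (-0.01) and apex and middle turn (-0.12), with Cdh5 (-0.11) and Pdgfrb (-0.10) in the last. The other reversals were of differences that were not called. Between apex and middle turn, Kdr read -0.02 with quantile normalization, -0.01 with median scaling, -0.02 with normexp correction, -0.03 with linear averaging and -0.05 with 3′ probes. Cdh5 read -0.01 and Pdgfrb -0.02 with linear averaging, and Cdh5 -0.05 with 3′ probes. Vwf read 0.03 with normexp correction and 0.01 with the median of probes between middle turn and base, where 3′ probes gave 0.02, and 0.02 with 5′ probes between apex and middle turn. Without single arrays Vwf ran from -0.10 to 0.02 between apex and base, from -0.08 to 0.03 between apex and middle turn and from -0.06 to 0.03 between middle turn and base. Esam read 0.08 with the median of probes and 0.07 with 5′ probes between middle turn and base. The cause of these changes was not tested.

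Signal over background limited Vwf most, with 18 of 46 probes not well above background in any turn.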

Other observations

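Lymphatic and blood cell genes gave further values, beside a share of 39.2% of all genes called between apex and base. Of 4 lymphatic endothelium genes measured, Prox1, a transcription factor that supporting cells of the organ of Corti also make, was higher in the apex by 1.62 (limma adjusted p = 0.00346) and Reln, reelin, by 1.03 (adjusted p = 0.00162), while Lyve1, a hyaluronan receptor of lymphatics and some macrophages, was lower by -0.49 (adjusted p = 0.0157). Of 7 erythroid genes 1, Klf1, was called between apex and base, and the list means overlapped between turns, from 9.82 to 10.96 in the apex, 10.21 to 10.67 in the middle and 9.74 to 10.69 in the base. Of 9 neutrophil and lymphocyte genes 1, Cd79a, was called, and all 9 read higher in the apex, with list means of 5.91 to 8.63 on the apical and 5.93 to 6.28 on the basal arrays.

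Genes of the sensory and neural parts of the pieces were mostly lower in the base. Of 9 hair cell genes 8 were higher in the apex, with list means of 8.46 to 8.76 in the apex and 6.96 to 7.40 in the base. Of 8 spiral ganglion neuron genes 6 were higher and 1 lower, with means of 10.13 to 10.46 and 8.44 to 10.05. Fibroblast genes gave 2 higher and 3 lower of 8, cartilage genes 1 and 4 of 8, and bone genes 1 and 2 of 8. Over all genes, 17.6% were called higher and 21.6% lower in the apex.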
